A study of Arabidopsis thaliana with 18 samples.

Results

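The stretch of chromosome 3 from 17 to 21 Mb of the Arabidopsis thaliana genome (build TAIR10) held 1192 of the 32678 genes in the deposited count files. A gene belonged to it when the midpoint of its start and end lay above 17 Mb and at or below 21 Mb, and the members ran from position 17000641 to 20998695. The stretch was chosen by the control libraries, in which many of its genes in the line Col-S had levels close to Cvi-0, so values from control libraries are given as a description with no test. That choice did not use the differences among the 9 ozone libraries. Of the members, 1086 are annotated as protein coding and 32 as pseudogenes, 110 had no count in any library, and 870 passed the filter on low counts and were tested among 20622 genes.

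Natural accessions of Arabidopsis differ at many places in the genome, and a near-isogenic line carries a few stretches of one accession in the background of another. Within such a stretch a gene comes with the donor's own regulatory and coding sequence. Outside such stretches a gene has the sequence of the recurrent parent. Ozone enters leaves through stomata, breaks down to reactive oxygen species in the apoplast, and sets off calcium, hormone and defence signalling that overlaps with the response to pathogens. The stretch holds well known genes of that signalling, among them EDS1 and PAD4, lipase-like proteins that act together in immunity and salicylic acid accumulation, the transcription factor gene WRKY70 and the RPW8 homologs HR1 to HR4.

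RNA came from whole rosettes of 3-week-old plants of 3 genotypes. Col-0 is the common laboratory accession, Cvi-0 is an ozone-sensitive accession, and the near-isogenic line Col-S is Col-0 with that sensitivity crossed in from Cvi-0. Plants were kept as controls or given 350 nL/L ozone for 2 h. From 10 to 15 rosettes were pooled per genotype and treatment, and RNA of 3 biological replicates was isolated for every one of the 6 combinations. Col-S is a single line, so what is measured in it belongs to that line. It carries another stretch of Cvi-0 origin, on chromosome 2, whose genes are counted here with those outside the stretch. Total counts ran from 14905841 to 26171613 per library, so a floor of 3 counts was 0.115 to 0.201 CPM (counts scaled to library size), a limit that covers counting error only. All 5 rosette leaf markers were detected in every group, with a summed level of 51800 to 59700 CPM in control libraries. The root markers summed to 38 to 86.7 CPM with RHD6 at 0, and the flower markers to 0.458 to 2.81 CPM. Ozone replicates 2 of Col-S and Col-0 and control replicate 2 of Col-0 lay apart from the other libraries of their groups on the first principal component, at 108.1, 54.52 and -92.1 against 124.7 and 138.2, 79.89 and 89.82, and -121.3 and -115.7.

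The reference sequence before 3 members with different patterns is shown: PAD4, whose ozone response was larger in both Cvi-0 and Col-S, HR4, low in both, and AT3G47680, nearly without counts in Col-S. A larger response in Col-S than in Col-0 is not particular to the stretch. It was called in 30 of the 870 tested members and in 576 of the 19752 tested genes outside. Each sequence is the 250 bases upstream of the annotated start in RefSeq's TAIR10.1 assembly, which is the Col-0 sequence, and no window overlaps another gene of the files. Capitals mark the W-box core TTGAC, the motif that WRKY factors bind, read on either strand and therefore also as GTCAA. PAD4 is chr3:19431121-19431370 on the plus strand, HR4 is chr3:18732818-18733067 on the plus strand, and AT3G47680 is chr3:17579578-17579827 on the minus strand.
PAD4: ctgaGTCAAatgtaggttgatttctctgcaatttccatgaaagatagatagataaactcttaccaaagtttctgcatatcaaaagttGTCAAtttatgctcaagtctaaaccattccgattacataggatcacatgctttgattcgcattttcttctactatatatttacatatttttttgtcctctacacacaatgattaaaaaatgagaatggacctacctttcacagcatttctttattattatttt
HR4: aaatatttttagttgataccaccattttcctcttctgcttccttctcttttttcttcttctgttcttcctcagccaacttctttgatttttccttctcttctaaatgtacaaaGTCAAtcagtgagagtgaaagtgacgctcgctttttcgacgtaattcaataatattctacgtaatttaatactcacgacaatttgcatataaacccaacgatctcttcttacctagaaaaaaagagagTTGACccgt
AT3G47680: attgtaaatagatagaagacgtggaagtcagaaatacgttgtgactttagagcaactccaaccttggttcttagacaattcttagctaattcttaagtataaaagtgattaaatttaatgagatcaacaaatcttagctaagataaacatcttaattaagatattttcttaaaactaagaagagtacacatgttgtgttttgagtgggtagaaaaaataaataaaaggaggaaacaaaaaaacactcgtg
The PAD4 window held the core 2 times as GTCAA, the HR4 window held it 1 time as TTGAC and 1 time as GTCAA, and the AT3G47680 window held none. Of all 32398 such windows 44.3% held the core, and of the windows of the 870 tested members 46.9%.

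In control libraries, Col-S followed Cvi-0 over most of the stretch but not at its left end. A gene was informative where Cvi-0 and Col-0 differed at least 2-fold with an edgeR adjusted p under 0.05. Its index was the log2 difference of Col-S from Col-0 divided by that of Cvi-0 from Col-0, so that 0 is the level of Col-0 and 1 that of Cvi-0, and above 0.5 Col-S was nearer to Cvi-0. In controls 63 of the 870 tested members were called between Col-S and Col-0 (7.24%, against 0.844% of all tested genes), 79 between Col-S and Cvi-0 (9.08%, against 21.1%) and 203 between the parents (23.3%, against 24%), and all 63 lay above 17.5 Mb. Of 86 informative members, 53 were nearer to Cvi-0 (61.6%), with a median index of 0.75, against 11.5% of the 2296 informative genes of the whole genome and 9.5% of the 2210 outside the stretch. The 53 include members beyond the level of Cvi-0, such as AT3G47680 with an index of 3.49. Of the 86, Col-S was called against Col-0 only in 35, against Cvi-0 only in 23, against both in 6 and against neither in 22. Between 17 and 17.5 Mb only 1 of 18 informative members was nearer to Cvi-0, with a median index of 0.08. Between 17.5 and 21 Mb it was 52 of 68, with a median of 0.90. The division at 17.5 Mb was drawn after the values were seen.

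The index changed between neighbouring informative members on the left and between 21.39 and 21.58 Mb on the right. The last informative member before the change on the left was AT3G47380, an invertase/pectin methylesterase inhibitor gene at 17.46 Mb, with an index of 0.11 in control libraries, and the next informative member, the calcium-binding EF-hand gene AT3G47480 at 17.5 Mb, had 0.63. In controls AT3G47480 was not called against Col-0 or Cvi-0 (edgeR adjusted p = 0.28 and 0.27). Its Col-0 controls were spread, at 6.53, 27.0 and 8.31 CPM. AT3G47560, an alpha/beta-hydrolase gene at 17.53 Mb whose locus overlaps AT3G47550, had 1.01. On the right the run of high indices went on past the end of the stretch. Between 21 and 21.5 Mb 5 of 6 informative genes were nearer to Cvi-0, and between 21.5 and 22 Mb 0 of 9 were. The last of the 6, AT3G57780 at 21.4 Mb, had an index of 0.39 and differed from Cvi-0 (edgeR adjusted p = 0.00051). The next informative gene, AT3G58270 at 21.58 Mb, had -0.58. The genes just inside and outside the limits of the stretch were AT3G46370, a leucine-rich repeat kinase gene, at 17.05 Mb with an index of 0.16, MYB48 at 16.95 Mb with -0.25, AT3G56220, annotated as a transcription regulator, at 20.86 Mb with -0.08, and FAR6, a fatty acid reductase gene, just past 21 Mb with 0.63. The limits at 17 and 21 Mb thus do not coincide with the places where the index changed.

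**Figure D1:**
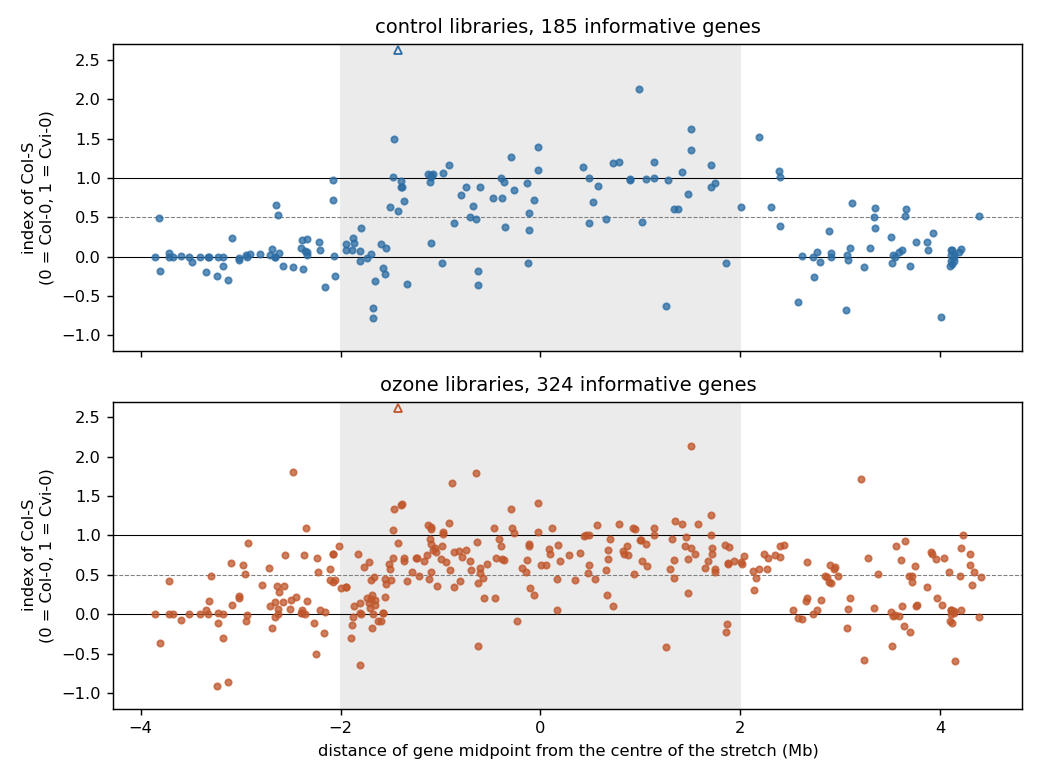
Index of Col-S (0 is the level of Col-0, 1 that of Cvi-0) of informative chromosome 3 genes against the distance of the gene midpoint from the centre of the stretch in Mb, in control libraries (185 genes, top) and ozone libraries (324 genes, bottom). Each point is a gene, open triangles at the edge are genes outside the axis (1 in each panel), and the grey band is the stretch. The points rise from near 0 to near 1 inside the left edge of the band and fall back beyond its right edge.

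The ozone libraries, which the choice of the stretch did not use, showed the same arrangement. Of 177 members informative there, 122 were nearer to Cvi-0 (68.9%), against 35.5% of the 4230 informative genes of the genome and 34.1% of the 4053 outside the stretch. Between 17 and 17.5 Mb it was 5 of 34, between 17.5 and 21 Mb 117 of 143 with a median index of 0.75, between 21 and 21.5 Mb 12 of 14, and between 21.5 and 22 Mb 4 of 17. The level outside the stretch was much higher after ozone than in controls. The contrasts of the stretch with the rest of the genome are not ranked between conditions, since the stretch was chosen on control libraries. Of the 49 members between 17.5 and 21 Mb that were informative in both conditions, 36 were nearer to Cvi-0 in both and 4 were nearer to Col-0 in both. Outside the stretch 71 of 1485 were nearer to Cvi-0 in both. Of the 177 members informative after ozone, Col-S was called against Col-0 only in 79, against Cvi-0 only in 40, against both in 35 and against neither in 23.

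Taken library by library, the 3 Col-S controls had 54, 51 and 58 of the 86 members nearer to Cvi-0. The 3 Col-S ozone libraries had 110, 85 and 132 of 177. Col-S ozone replicate 2 was the lowest, and it was also the lowest outside the stretch, at 18.4% against 33.6% and 43.8%. Its part in these counts was not tested beyond leaving it out, after which 135 of 185 members were nearer to Cvi-0.

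**Figure D2:**
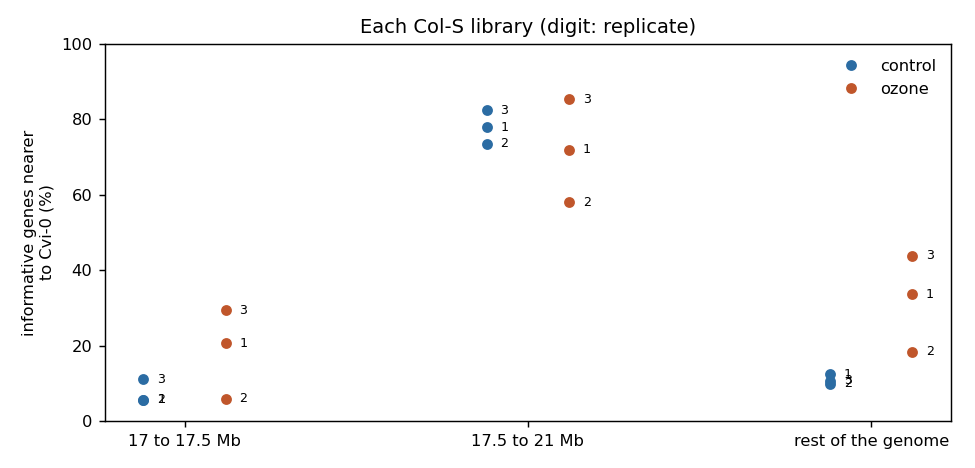
Percent of informative genes with a level nearer to that of Cvi-0 in each Col-S library (points, numbered by replicate) for members from 17 to 17.5 Mb, members from 17.5 to 21 Mb and all genes outside the stretch. The 6 libraries lie between 58.0% and 85.3% from 17.5 to 21 Mb, between 5.56% and 29.4% from 17 to 17.5 Mb, and between 9.91% and 43.8% in the rest of the genome.

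After ozone, 224 of the 870 tested members differed between Col-S and Col-0 in edgeR's quasi-likelihood test, 111 higher and 113 lower, which is 25.7% of them against 15.9% of all tested genes. Higher calls made up 10.2% and lower calls 5.74% of all tested genes. Between Col-S and Cvi-0, 132 members differed (15.2%), against 28.6% of all tested genes. Between the parents, 423 members differed (48.6%), against 49.0%, with 216 higher and 207 lower in Cvi-0 against 24.6% and 24.4% of all tested genes. The members were thus near the genome's share for the difference of the parents, above it for the difference of Col-S from Col-0 and below it for the difference of Col-S from Cvi-0. The division at 17.5 Mb showed here too. Between 17.5 and 21 Mb, 212 of 783 members (27.1%) differed from Col-0 and 87 (11.1%) from Cvi-0, whereas between 17 and 17.5 Mb 12 of 87 (13.8%) differed from Col-0 and 45 (51.7%) from Cvi-0. In 171 members (19.7%) the gene was called, the 3 Col-S and the 3 Col-0 ozone values did not overlap and the average log2 CPM was at least 1, against 13.0% of all tested genes. Without Col-S ozone replicate 2 the counts were 239 against Col-0 and 97 against Cvi-0, and without Col-0 ozone replicate 2 they were 170 and 145.

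**Figure D3:**
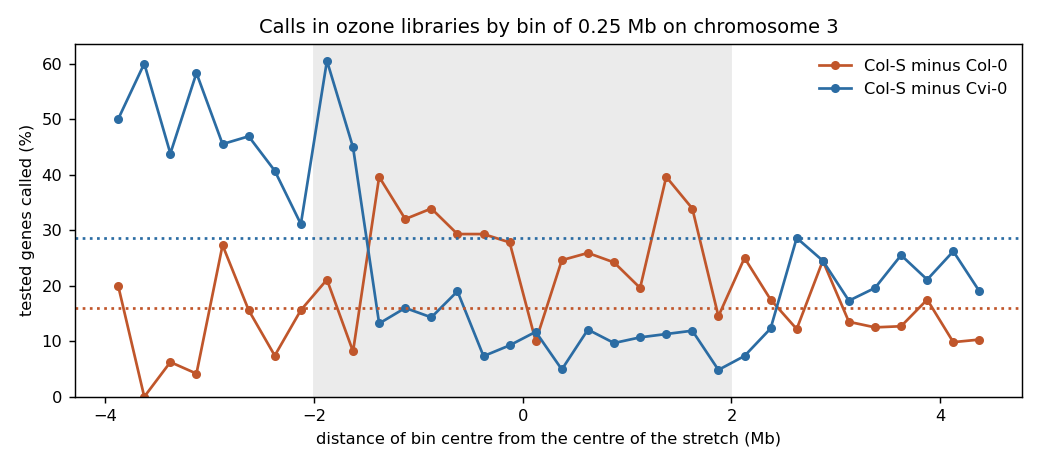
Percent of tested chromosome 3 genes called in ozone libraries for Col-S minus Col-0 and Col-S minus Cvi-0, in bins of 0.25 Mb by distance from the centre of the stretch (grey band) in Mb, with the shares over all tested genes, 15.9% and 28.6%, as dotted lines. Inside the left edge the Col-S minus Cvi-0 line falls from 44.9% to 13.2% between neighbouring bins while the Col-S minus Col-0 line rises from 8.16% to 39.6%.

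A comparison that shares no library used the control libraries of the parents to pick the genes and the ozone libraries of Col-S and Col-0 to test them. Of the 86 members informative in controls, 44 were called in the same direction in Col-S minus Col-0 after ozone, 5 in the opposite direction and 37 were not called. The share in the same direction was 51.2%, against 10.2% of all 2296 informative genes and 8.64% of those outside the stretch. The share in the opposite direction over all informative genes was 7.14%. Between 17.5 and 21 Mb 42 of 68 went the same way, and between 17 and 17.5 Mb 2 of 18. The 5 opposite calls include BT2 and BCS1, both lower in Cvi-0 than in Col-0 in controls and higher in Col-S than in Col-0 after ozone, and BCS1 rests on an edgeR adjusted p of 0.039.

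**Figure D4:**
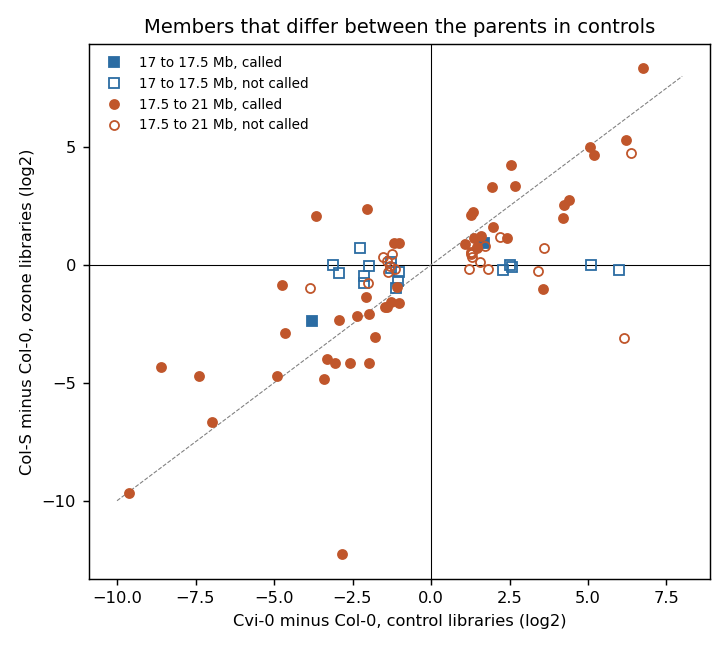
Log2 fold change of Cvi-0 minus Col-0 in control libraries against that of Col-S minus Col-0 in ozone libraries for the 86 members informative in controls, with filled symbols for members called in Col-S minus Col-0 after ozone and the diagonal dashed. Members from 17.5 to 21 Mb (circles) spread along the diagonal, and 16 of the 18 members from 17 to 17.5 Mb (squares) are not called.

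Some members were counted in one parent only. Over the 6 libraries of a genotype, 4 of the 1192 members had at least 60 counts in Col-0 and at most 3 in Cvi-0, and 3 of these had none in Col-S. AT3G52535, a non-coding RNA locus that overlaps AT3G52540, had 624 counts in Col-0 and 0 in both Cvi-0 and Col-S. AT3G54363, an uncharacterized gene, had 89, 0 and 0, and AT3G50490, next to the HR genes, 68, 0 and 0. The protein kinase gene AT3G52530 had 132 counts in Col-0, 0 in Cvi-0 and 9 in Col-S. In the opposite direction 4 members had at most 3 counts in Col-0 and at least 60 in Cvi-0. AT3G48346 had 0 counts in Col-0, 108 in Cvi-0 and 166 in Col-S, its neighbour AT3G48344 had 2, 79 and 113, and the lectin gene AT3G53075 had 2, 283 and 128. AT3G46710, a disease resistance gene of the NB-ARC class at 17.21 Mb, had 0, 93 and 1, and it lies left of the change at 17.5 Mb. Outside the stretch, among 31486 genes, such genes were not rarer, and the pattern in Col-S was the reverse. Of 155 genes counted in Col-0 but not in Cvi-0, 140 had at least 60 counts in Col-S, and of 185 counted in Cvi-0 but not in Col-0, 139 had at most 3 in Col-S. Reads of all genotypes were counted on the Col-0 reference, so an unexpressed gene and an allele whose reads do not align cannot be told apart.

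Among members higher in Col-S than in Col-0 after ozone, AT3G48640, an uncharacterized gene at 18.02 Mb, had the largest log2 difference once members averaging under 1 on the log2 CPM scale were set aside. It read 509, 609 and 598 CPM in Col-S, 555, 617 and 459 CPM in Cvi-0, compared with 33.5, 22.4 and 35.6 CPM in Col-0. Col-S and Cvi-0 overlapped, and both lay far above Col-0. Col-S exceeded Col-0 by 4.23 ± 0.36 (log2, SE; edgeR adjusted p = 2.0e-06), and its difference from Cvi-0 was 0.07 ± 0.32 (edgeR adjusted p = 0.89). In controls the order was alike at a lower level, with 13.5, 20.9 and 18 CPM in Col-S, 18.4, 8.30 and 20.9 in Cvi-0, compared with 1.77, 4.66 and 1.39 in Col-0.

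AT3G49130, annotated with a SWAP/surp RNA-binding domain, read 34.4, 12.8 and 64.5 CPM in Col-S, 107, 72.3 and 134 CPM in Cvi-0, compared with 2.31, 0.778 and 3.96 CPM in Col-0 after ozone. Col-S lay between the parents and overlapped neither. Its log2 difference from Col-0 was 4.02 ± 0.54 (edgeR adjusted p = 0.0001) and from Cvi-0 -1.50 ± 0.44 (edgeR adjusted p = 0.017). The C2H2 zinc finger gene AT3G53600 had a like order, with 7.45, 4.76 and 20.9 CPM in Col-S, 25.5, 18.8 and 36.9 in Cvi-0, compared with 0.147, 0.573 and 1.57 in Col-0 (log2 3.87 ± 0.61 for Col-S minus Col-0, edgeR adjusted p = 0.00058). In control libraries AT3G49130 was at most 0.335 CPM in any genotype. AT3G48390, a gene with an MA3 domain, differed in both conditions. It read 13.6, 7.99 and 11.4 CPM in Col-S, 21.2, 12.3 and 20.4 in Cvi-0, compared with 0.982, 1.15 and 1.19 in Col-0 after ozone. That is 3.31 ± 0.30 above Col-0 (log2, SE; edgeR adjusted p = 3.8e-06). AT3G48240, a PB1 domain (Octicosapeptide/Phox/Bem1p) gene, read 7.94, 2.31 and 8.99 CPM in Col-S against 0.589, 0.737 and 0.759 in Col-0 after ozone, and 12.6, 11.1 and 15.4 in Cvi-0 (log2 3.18 ± 0.55 for Col-S minus Col-0, edgeR adjusted p = 0.00086). The non-coding RNA AT3G54366, beside AT3G54363, read 56.3, 42.0 and 45.6 CPM in Col-S, 45.1, 41.3 and 41.3 in Cvi-0, compared with 13.1, 11.5 and 8.30 in Col-0 after ozone (log2 2.12 ± 0.18 for Col-S minus Col-0, edgeR adjusted p = 1.8e-06). In each of these genes the 3 Col-S values lay above the 3 of Col-0, which the rule that named them required.

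A run of adjacent transporter genes near 17.6 Mb, chosen after their values were seen, was higher in Cvi-0 and Col-S than in Col-0 after ozone. ABCA4, a gene of the ABC transporter subfamily A, was at 24.2 ± 3.26 CPM in Col-S, 27.2 ± 2.74 in Cvi-0 and 9.09 ± 0.826 in Col-0 in controls (SD, n = 3). After ozone the means were 16.3 ± 1.91, 12.7 ± 2.1 and 7.01 ± 0.362 CPM (SD, n = 3), and Col-S exceeded Col-0 by 1.22 ± 0.14 (log2, SE; edgeR adjusted p = 3.2e-05). Its neighbours ABCA3 and ABCA5 exceeded Col-0 by 2.76 ± 0.59 and 2.01 ± 0.30 (edgeR adjusted p = 0.0041 and 0.00028) with group means below 5 CPM throughout. ABCA2, on the other side of ABCA3 and overlapping AT3G47720, was at 124 ± 11.8 CPM in Col-S, 119 ± 9.34 in Cvi-0 and 67.1 ± 9.39 in Col-0 after ozone (SD, n = 3), with a log2 difference of 0.88 ± 0.11 between Col-S and Col-0 (edgeR adjusted p = 7.1e-05).

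HR4, a homolog of the mildew resistance gene RPW8, was low in both Cvi-0 and Col-S. In ozone libraries it read 1420, 872 and 1380 CPM in Col-0, 69.3, 74.7 and 56.9 in Cvi-0, compared with 59.3, 54.4 and 70.3 in Col-S. In controls it read 33.5, 181 and 49.4 CPM in Col-0, 0.255, 0.218 and 0.204 in Cvi-0, compared with 0.884, 0.574 and 0.272 in Col-S. Col-S was below Col-0 by 4.32 after ozone (log2 fold change -4.32 ± 0.47, edgeR adjusted p = 1.8e-05), and its difference from Cvi-0 was -0.13 ± 0.41 (edgeR adjusted p = 0.85). HR4 rose with ozone in all 3 genotypes, by 3.80 ± 0.46 in Col-0, 8.19 ± 0.69 in Cvi-0 and 6.74 ± 0.61 in Col-S (log2, SE; edgeR adjusted p = 1.9e-06, 1.3e-08 and 3.7e-08). Its values after ozone in Cvi-0 and Col-S lay within the range of the Col-0 controls only through the control at 181 CPM. They lay above the controls at 33.5 and 49.4 CPM. The neighbouring HR3 was at 20.0 CPM in Col-0, 20.0 in Cvi-0 and 18 in Col-S after ozone, and its difference between Col-S and Col-0 did not pass the test (log2 -0.15 ± 0.28, edgeR adjusted p = 0.77).

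CYP71A25, a cytochrome P450 gene, read 2.90, 4.55 and 2.28 CPM in Col-0, 0.342, 0.0602 and 0.0689 in Cvi-0, compared with 0.0493, 0.144 and 0.136 in Col-S after ozone. The Col-S ozone libraries held 6 counts in all and those of Cvi-0 held 8, against 212 in Col-0, and the fitted log2 difference of Col-S from Col-0 was -4.84 ± 0.58 (edgeR adjusted p = 3.7e-05). In controls it read 12.0, 6.34 and 7.69 CPM in Col-0, 1.27, 0.691 and 0.560 in Cvi-0, compared with 1.14, 0.621 and 0.409 in Col-S. AT3G47580, a leucine-rich repeat kinase gene whose locus overlaps AT3G47590, read 9.87, 9.50 and 7.27 CPM in Col-0, 1.54, 2.23 and 2.27 in Cvi-0, compared with 0.345, 1.78 and 1.57 in Col-S after ozone. AT3G47560 read 19.9, 33.0 and 17.5 CPM in Col-0, 6.89, 6.62 and 8.89 in Cvi-0, compared with 6.66, 5.87 and 8.10 in Col-S. The uncharacterized gene AT3G48630, beside AT3G48640, read 14.0, 12.6 and 18.3 CPM in Col-0, 4.39, 3.31 and 2.76 in Cvi-0, compared with 3.94, 3.94 and 5.04 in Col-S. The neighbours AT3G48630 and AT3G48640 therefore differed in opposite directions between Col-S and Col-0. The expansin gene EXPA16 read 7.36, 15.7 and 13.5 CPM in Col-0, 3.82, 4.57 and 2.14 in Cvi-0, compared with 3.55, 2.31 and 3.00 in Col-S after ozone. The log2 differences of Col-S from Col-0 were -2.87 ± 0.34 for AT3G47580, -1.78 ± 0.20 for AT3G47560, -1.80 ± 0.23 for AT3G48630 and -2.05 ± 0.44 for EXPA16 (SE; edgeR adjusted p = 3.7e-05, 2.3e-05, 6.5e-05 and 0.0045). In all 4 the Col-S values lay below those of Col-0, which the rule that named them required.

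**Figure D5:**
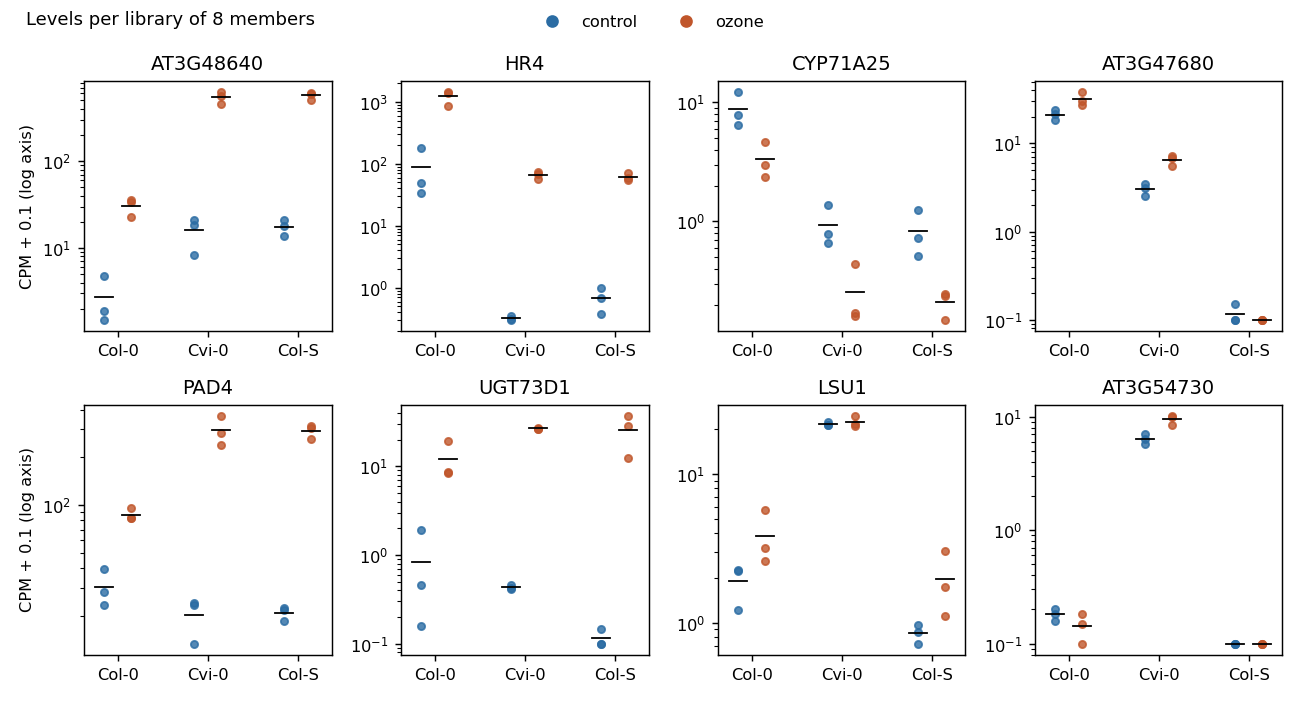
Levels of 8 members (CPM + 0.1, log axis) in the 3 libraries of each genotype and condition, with horizontal bars at the group means. In AT3G48640, HR4 and CYP71A25 Col-S lies with Cvi-0 in both conditions and in PAD4 Col-S lies with Cvi-0 after ozone; in LSU1 and AT3G54730 it lies nearer to Col-0, and in AT3G47680 it is below both parents.

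Some members were nearer to Col-0 in Col-S although the parents differed. AT3G54730, annotated as a transcription repressor, lies at 20.26 Mb. It read 9.86, 8.31 and 9.99 CPM in Cvi-0 and at most 0.0819 in Col-0 after ozone, and it had 0 counts in all 6 Col-S libraries. Cvi-0 was at least 174-fold higher than Col-S after ozone, against 3 counts over the group. LSU1 and LSU3, genes of the family that responds to low sulfur, were also nearer to Col-0. LSU1 read 21.6, 20.8 and 24.4 CPM in Cvi-0, 2.5, 3.07 and 5.59 in Col-0 and 1.63, 1.01 and 2.93 in Col-S after ozone. Col-S was below Cvi-0 by 3.63 (log2 -3.63 ± 0.31, edgeR adjusted p = 9.5e-08). In controls LSU1 read 21.4, 22.2 and 21.4 CPM in Cvi-0 and between 0.624 and 2.17 in the other 6 libraries. LSU3 read 23.8, 27.7 and 20.5 CPM in Cvi-0, 2.65, 2.7 and 4.83 in Col-0 and 7.15, 4.23 and 11.1 in Col-S after ozone. Against Col-0, LSU1 was lower in Col-S and LSU3 higher, with log2 differences of -1.04 ± 0.33 and 1.14 ± 0.34 (SE; edgeR adjusted p = 0.038 and 0.029), and the call of LSU1 was lost without ozone replicate 2 or 3 of Col-0 or 1 or 2 of Col-S, with an adjusted p of 0.054, 0.18, 0.12 and 0.13 from edgeR.

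The other named members near Col-0 lie left of 17.5 Mb. COPT2, a copper transporter gene at 17.27 Mb, read 5.25, 4.05 and 3.09 CPM in Col-0, 2.51, 3.13 and 1.57 in Col-S and 0.285, 0.181 and 0.413 in Cvi-0 after ozone. UGT76E11, a glucosyltransferase gene overlapping AT3G46668, read 25.4, 24.9 and 19.7 CPM in Col-0, 26.3, 13.3 and 10.8 in Col-S and 2.56, 2.17 and 2.41 in Cvi-0. AT3G46370 read 4.57, 9.83 and 6.40 CPM in Col-0, 3.30, 5.0 and 2.11 in Col-S and 0.627, 0.963 and 1.24 in Cvi-0. In these 3 genes Col-S differed from Cvi-0, with log2 differences of 3.06 ± 0.47, 2.82 ± 0.28 and 1.92 ± 0.45 (edgeR adjusted p = 8.7e-05, 6.8e-07 and 0.0035). Their differences from Col-0 did not pass the test, at -0.76 ± 0.31, -0.47 ± 0.23 and -0.98 ± 0.34 (edgeR adjusted p = 0.11, 0.19 and 0.062).

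In a few members Col-S lay outside the range of both parents, with a call against each. There were 10 such members after ozone, 1.15% of the tested members against 1.72% of all tested genes, and 5 in controls, 0.575% against 0.136%. After ozone the share in the stretch was thus not above that of the genome. AT3G47680, annotated as a DNA binding protein, read 37.8, 27.4 and 30.1 CPM in Col-0, 7.12, 6.80 and 5.38 in Cvi-0, compared with 0, 0 and 0 in Col-S after ozone. In controls it read 23.6, 21.3 and 18.5 CPM in Col-0, 2.42, 3.35 and 3.00 in Cvi-0, compared with 0.0520, 0 and 0 in Col-S. After ozone Col-S was at least 586-fold lower than Col-0 and at least 121-fold lower than Cvi-0, against 3 counts over the group. Its neighbour AT3G47675, a leucine-zipper gene, read 6.53, 5.49 and 5.91 CPM in Col-0, 4.90, 4.21 and 4.82 in Cvi-0, compared with 0.394, 0.192 and 0.204 in Col-S. The genes on either side were counted in Col-S, AT3G47670 at 21.4 ± 3.24 CPM and EB1a at 4.19 ± 1.15 CPM after ozone (SD, n = 3). AT3G53980, a lipid-transfer protein gene, was above both parents, at 8.78, 4.33 and 5.04 CPM in Col-S, 3.19, 2.59 and 1.38 in Cvi-0, compared with 1.62, 1.27 and 0.868 in Col-0 after ozone. The actin gene ACT12 and the glycosyltransferase gene AT3G46690, both left of 17.5 Mb, were above both parents after ozone, at 3.81 and 8.35 CPM in Col-S, 1.19 and 3.11 in Col-0 and 0.591 and 0.690 in Cvi-0. BCAT3, a branched-chain aminotransferase gene, was below both, at 68.7 CPM in Col-S, 113 in Col-0 and 94.9 in Cvi-0. The other 4 were LSU1, the protease gene AT3G52500, the glycosyl hydrolase gene AT3G55780 and LAF3.

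Ozone itself changed the members about as often as other genes. It changed 487 of 870 in Col-0 (56.0%, against 57.3% of all tested genes), 610 in Cvi-0 (70.1%, against 70.6%) and 576 in Col-S (66.2%, against 68.3%). The members rose and fell in nearly equal numbers, 260 and 227 in Col-0, 305 and 305 in Cvi-0 beside 293 and 283 in Col-S. Over all tested genes 29.8% rose and 27.5% fell in Col-0, in Cvi-0 the shares were 34.5% and 36.1%, and in Col-S 34.3% and 34.0%. The response differed between Col-S and Col-0 in 38 members, 30 with a higher log2 response in Col-S and 8 with a lower one, which is 4.37% against 3.26% of all tested genes, where 2.94% had a higher and 0.325% a lower response. For Cvi-0 against Col-0 it differed in 188 (21.6%, against 21.4%), and for Col-S against Cvi-0 in 19 (2.18%, against 4.86%). These response comparisons hold the control libraries used to choose the stretch. The count of 38 depended on the tool and on single libraries, with 65 in DESeq2, 63 without Col-S ozone replicate 2, 25 without Col-0 control replicate 2, 24 without Col-0 ozone replicate 2 and 23 without Col-S control replicate 1.

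The largest response difference of Col-S against Col-0 among the named members was that of UGT73D1, a glucosyltransferase gene. It read 12.3, 36.9 and 28.2 CPM in Col-S, 26.3, 27.2 and 26.7 in Cvi-0, compared with 8.25, 8.52 and 19.4 in Col-0 after ozone, and 0, 0.0478 and 0 in Col-S, 0.318, 0.327 and 0.356 in Cvi-0, compared with 0.0589, 1.80 and 0.361 in Col-0 in controls. The Col-S controls held 1 count in all, and the response difference of 6.31 ± 1.56 (edgeR adjusted p = 0.035) lost its call without control replicate 2 or ozone replicate 1 or 2 of Col-0 (adjusted p = 0.30, 0.053 and 0.081), ozone replicate 3 of Cvi-0 (0.052), or control replicate 1, 2 or 3 or ozone replicate 3 of Col-S (0.094, 0.087, 0.11 and 0.069). The log2 response was lower in Col-S than in Col-0 in AT3G49970, an NPH3 family gene. In Col-S it fell with ozone from 5.62, 4.45 and 3.72 to 2.22, 1.78 and 0.885 CPM, and in Cvi-0 from 9.93, 7.60 and 7.28 to 1.31, 1.08 and 0.758 CPM. It rose from 0.883, 0.818 and 0.619 to 2.45, 1.76 and 1.68 CPM in Col-0. The response difference of Col-S from Col-0 was -2.80 ± 0.41 (edgeR adjusted p = 0.0021). AT3G48380, which encodes a UFM1-specific peptidase, rose in Col-0 from 16.1, 18.5 and 19.6 to 52.4, 35.8 and 41.7 CPM. In Col-S it was at 26.9, 28.8 and 28.3 CPM in controls and 29, 27.1 and 28.2 after ozone, and in Cvi-0 at 26.0, 32.1 and 29.7 and then 27.7, 27.6 and 30.9. GATL2, a galacturonosyltransferase-like gene, rose from 5.71, 5.4 and 5.06 to 17.5, 21.4 and 26.6 CPM in Col-0, and was at 11.8, 7.79 and 6.40 and then 9.81, 10.5 and 12.4 CPM in Col-S. CXIP1, a monothiol glutaredoxin gene, fell in each genotype, from 151 to 98.0 CPM in Col-0, from 148 to 46.7 in Cvi-0 and from 117 to 40.8 in Col-S (group means).

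All 8 genes of the immune signalling and salicylic acid list were tested, and all 8 rose with ozone in Col-S and in Cvi-0, 7 in Col-0. Over all tested genes 34.3%, 34.5% and 29.8% rose. The median log2 response of the list was 3.54 in Col-S, 3.25 in Cvi-0 and 1.74 in Col-0, against -0.03, -0.05 and -0.02 over all tested genes. After ozone 3 were higher in Col-S than in Col-0, 1 was lower and 4 were not called. Over all tested genes 10.2% were higher and 5.74% lower. The median log2 difference was 0.51 against -0.01. PAD4 read 261, 313 and 308 CPM in Col-S, 285, 364 and 240 in Cvi-0, compared with 82.3, 83.3 and 95.5 in Col-0 after ozone, and between 13.3 and 39.3 CPM in all control libraries. Col-S and Cvi-0 overlapped and lay above Col-0. Its response was larger in Col-S than in Col-0 by 2.29 ± 0.30 (log2, SE; edgeR adjusted p = 0.0014). EDS1, the partner of PAD4, read 150, 215 and 180 CPM in Col-S, 208, 262 and 207 in Cvi-0, compared with 88.7, 117 and 105 in Col-0 after ozone, and its response was larger in Col-S by 1.25 ± 0.27 (edgeR adjusted p = 0.018). This call was lost without control replicate 2 of Col-0 or control replicate 1 of Col-S (edgeR adjusted p = 0.052 and 0.051). EDS1 has a closely similar neighbour, AT3G48080, so the division of reads between the pair is uncertain. The neighbour was at 11.6 CPM in Col-S and 8.21 in Col-0 after ozone and was not called (edgeR adjusted p = 0.38).

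PUB22, a U-box ubiquitin ligase gene, read 28.4, 15.0 and 39.7 CPM in Col-S, 23, 19.2 and 25.1 in Cvi-0, compared with 14.2, 9.50 and 12.0 in Col-0 after ozone (log2 1.21 ± 0.26 for Col-S minus Col-0, edgeR adjusted p = 0.0043). The syntaxin gene SYP122 was at 685 CPM in Col-S and 546 in Col-0 after ozone, with a difference that did not pass the test (log2 0.33 ± 0.19, edgeR adjusted p = 0.28). In controls it was at 2.95 CPM in Col-S, 3.45 in Cvi-0 and 9.88 in Col-0, and its response was larger in Col-S than in Col-0 by 2.07 ± 0.30 (log2, SE; edgeR adjusted p = 0.0019). EP3, a chitinase gene, was lower in Col-S than in Col-0 after ozone, at 47.1, 38.2 and 40.9 CPM in Col-S, 56.1, 53.3 and 46.5 in Cvi-0, compared with 98.0, 75.1 and 86.6 in Col-0 (log2 -1.04 ± 0.14 for Col-S minus Col-0, edgeR adjusted p = 9.8e-05). Its response was not called different between Col-S and Col-0 (log2 0.18 ± 0.22, edgeR adjusted p = 0.72). In controls EP3 was already below both parents, at 2.56 CPM in Col-S, 5.95 in Col-0 and 5.77 in Cvi-0, with a call against each. WRKY70 at 20.91 Mb was spread widely, at 380, 663 and 342 CPM in Col-S and 229, 302 and 429 in Col-0 after ozone, and was not called (edgeR adjusted p = 0.33). PUB13, another U-box ligase gene, at 17.13 Mb, was at 109 CPM in Col-S, 106 in Col-0 and 60.4 in Cvi-0.

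Of 10 NLR and RPW8-like resistance genes 6 were tested. After ozone HR4 was the single one called between Col-S and Col-0, where 15.9% of all tested genes were called. The list median was -0.07. RPP13, an NLR gene at 17.13 Mb, was at 75.7 CPM in Col-S, 83.1 in Col-0 and 31.9 in Cvi-0 after ozone, so that it differed between the parents (log2 -1.38, edgeR adjusted p = 6.9e-07) and was not called between Col-S and Col-0 (edgeR adjusted p = 0.55). ZAR1 at 18.94 Mb, which overlaps AT3G50960, was at 371 CPM in Col-S, 390 in Cvi-0 and 301 in Col-0 and was likewise not called between Col-S and Col-0 (edgeR adjusted p = 0.13).

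Of the stress and hormone transcription regulators 11 of 13 lie in the stretch, and all were tested. After ozone 6 were higher in Col-S than in Col-0 and none lower, against 10.2% and 5.74% of all tested genes. The median log2 difference was 0.78, against -0.01. Between Cvi-0 and Col-0 there were also 6 higher and none lower, against 24.6% and 24.4% of all tested genes. RR5, a cytokinin response regulator also called ARR5, read 42.2, 51.0 and 58.1 CPM in Col-S, 62.5, 85.8 and 80.8 in Cvi-0, compared with 14.9, 19.3 and 16.3 in Col-0 after ozone. The 3 genotypes did not overlap, and Col-S was between the parents (log2 1.58 ± 0.14 above Col-0, edgeR adjusted p = 3.0e-06, and -0.60 ± 0.14 against Cvi-0, edgeR adjusted p = 0.003). MYB77 fell in Col-0, from 13.0, 11.4 and 13.1 to 7.12, 9.99 and 6.67 CPM, whereas it rose in Col-S, to 21.4, 23.1 and 25.6 CPM, and in Cvi-0, to 29.8, 42.9 and 32.9 CPM. Its response was larger in Col-S than in Col-0 by 1.65 ± 0.26 (log2, SE; edgeR adjusted p = 0.0028). NAC062, a membrane-bound NAC factor, read 325, 249 and 383 CPM in Col-S, 345, 352 and 329 in Cvi-0, compared with 163, 115 and 156 in Col-0 after ozone (log2 1.14 ± 0.16 for Col-S minus Col-0, edgeR adjusted p = 0.00017). BT2, a BTB/TAZ domain protein, read 14.5, 6.69 and 24.6 CPM in Col-S, 14.6, 14.0 and 25.8 in Cvi-0, compared with 3.19, 2.78 and 4.77 in Col-0 (log2 2.09 ± 0.40, edgeR adjusted p = 0.0019). BME3, a GATA factor, and HSFA7A, a heat shock factor, were the other 2 called, at 190 and 6.95 CPM in Col-S, 282 and 4.84 in Cvi-0, compared with 110 and 2.89 in Col-0.

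All 13 members of the photosynthesis and chlorophyll list fell with ozone in Col-S and in Cvi-0, and 12 fell in Col-0. Over all tested genes 34.0%, 36.1% and 27.5% fell. The median log2 responses of the list were -0.84, -1.01 and -0.47. After ozone 6 were lower in Col-S than in Col-0 and none was higher, against 5.74% and 10.2% of all tested genes. The median log2 difference was -0.45. In Cvi-0 11 were lower than in Col-0, against 24.4% of all tested genes. In edgeR's test 0 of the 13 had a different response in Col-S than in Col-0, 3 did at an unadjusted p under 0.05, and DESeq2 called 1. PTAC16, a plastid nucleoid protein gene at 17.23 Mb, read 608, 700 and 541 CPM in Col-S, 448, 507 and 402 in Cvi-0, compared with 968, 1140 and 821 in Col-0 after ozone (log2 -0.67 ± 0.15 for Col-S minus Col-0, edgeR adjusted p = 0.0055). GSA2, an enzyme of chlorophyll precursor synthesis, read 119, 120 and 135 CPM in Col-S, 115, 111 and 124 in Cvi-0, compared with 174, 176 and 173 in Col-0. LHCA4, a light-harvesting protein of photosystem I whose locus overlaps AT3G47460, fell from 7350 to 3350 CPM in Col-S, from 6250 to 2420 in Cvi-0 and from 8040 to 5150 in Col-0 (group means). HCEF1, the plastid fructose-bisphosphatase, overlaps AT3G54060 and was at 485 CPM in Col-S and 725 in Col-0 after ozone, a call lost without Col-0 ozone replicate 2 or Col-S ozone replicate 1 or 3 (edgeR adjusted p = 0.070, 0.056 and 0.079). PPL1, a PsbP-like protein gene, was at 107 and 141 CPM. Rosette leaf markers outside the stretch moved with the same groups, with a summed level after ozone of 27200 to 31700 CPM in Col-S, 20800 to 25500 in Cvi-0 and 37100 to 48200 in Col-0, and their part in these differences was not tested. In whole rosettes, fewer cells of a type and less RNA per cell cannot be told apart.

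The remaining lists were small. Over all tested genes 15.9% were called between Col-S and Col-0 after ozone, 10.2% higher and 5.74% lower. Of 7 kinase and phosphatase genes, 1 was lower, CRK, a CDPK-related kinase, at 16.1, 17.9 and 16.3 CPM in Col-S, 15.4, 17.9 and 14.7 in Cvi-0, compared with 21.7, 25.3 and 21 in Col-0. The list's median was -0.06. FER, the receptor kinase FERONIA, was at 213 CPM in Col-S and 173 in Col-0 and was not called (edgeR adjusted p = 0.078). Of 4 tested hormone metabolism and transport genes 0 were called in edgeR's test and 0 in DESeq2, 2 had an unadjusted p under 0.05, and the median was -0.21. The lowest p was that of DWF4, a brassinosteroid enzyme gene, at 5.47, 7.46 and 3.81 CPM in Col-S against 9.96, 9.38 and 7.92 in Col-0 (edgeR adjusted p = 0.089). Of 6 redox genes, 1 was higher and 2 were lower, with a median of -0.27. TRX1, a cytosolic thioredoxin gene, read 3.75, 4.09 and 3.81 CPM in Col-S, 3.99, 4.94 and 4.82 in Cvi-0, compared with 2.60, 2.5 and 1.95 in Col-0. GSTL2, a glutathione transferase gene that overlaps AT3G55030, read 40.4, 40.4 and 44.1 CPM in Col-S and 64.4, 71.0 and 58.0 in Col-0, and LSU1 was the other lower gene.

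Of 3 tested phenylpropanoid and tryptophan genes 1 was higher, with a median of 0.35. PAL2, phenylalanine ammonia-lyase, read 1820, 877 and 1880 CPM in Col-S, 1420, 1290 and 1240 in Cvi-0, compared with 710, 501 and 981 in Col-0 after ozone. The libraries of Col-S and Col-0 overlapped at Col-S replicate 2, and the difference passed the test (log2 1.06 ± 0.24, edgeR adjusted p = 0.0063). Of 12 tested transport and guard cell genes 2 were higher and 2 lower, with a median of -0.12. CHX20, a cation exchanger of guard cells, read 64.4, 46.5 and 77.3 CPM in Col-S, 61.9, 51.6 and 64.2 in Cvi-0, compared with 38, 29.2 and 39.9 in Col-0. Guard cell markers outside the stretch were between 43.3 and 55.6 CPM in sum over all libraries. MPK12, a gene of that marker list, lies in another stretch of Cvi-0 origin on chromosome 2. SWEET11, a sucrose exporter gene, read 53.8, 49.9 and 14.4 CPM in Col-S, 34.5, 20.8 and 16.4 in Cvi-0, compared with 132, 84.8 and 100 in Col-0. PTR1, a peptide transporter gene, was at 39.5 CPM in Col-S and 63.2 in Col-0, and HA4, a proton pump gene overlapping AT3G47960, at 3.62 and 2.08 CPM. The log2 differences were -0.68 and 0.79 (edgeR adjusted p = 0.033 and 0.049). The call of PTR1 was lost without ozone replicate 1 or 3 of Col-0 or 2 or 3 of Col-S, with an edgeR adjusted p of 0.12, 0.075, 0.099 and 0.14. That of HA4 was lost without any of 13 single libraries, at most at 0.19 without Col-S ozone replicate 3. SWEET11 lost its call without Col-0 ozone replicate 1, at 0.055.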

How the data were processed

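RNA of 18 whole-rosette libraries was measured by RNA-seq (TruSeq RNA kit, per the labels). The authors deposited raw gene counts, 1 whole number for each gene in each library. TopHat2, HTSeq, SAMtools, FastQC and the build TAIR10 are listed in the submitters' processing notes. For versions, strandedness and reads with several matches the sources used here give nothing, so reads of overlapping genes (166 members) may be shared. Gene starts in the files count from 0 and are printed from 1: read so, 9930 genes have the same ends as in RefSeq. All 31912 genes matched by code overlap their RefSeq place, and names come from RefSeq (1169 members matched).

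Counts were fitted with edgeR 4.0.16 in R 4.3.3 (filterByExpr, TMM, glmQLFit, glmQLFTest) with a mean per group over 18 libraries and 12 residual degrees of freedom. Calls needed an adjusted p (Benjamini-Hochberg, across all 20622 genes tested) below 0.05. CPM are TMM-scaled, ± with CPM is the SD of 3 libraries, and the SE of a log2 change is its size divided by the square root of the quasi-likelihood F. The fit was tested on simulated data. Total counts per library set the floor of 3 counts. Tables and figures used Python 3 with pandas. Replicates are labelled as biological, and no 2 libraries agreed within sampling noise (lowest chi-square per degree of freedom 9.49).

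Alternatives were edgeR with DESeq2-type size factors, DESeq2 1.42.0, no filter, a replicate block, 2 other fold limits for informative genes, and leaving out each library. The stretch, the gene lists and the tests were chosen with earlier results of these data known. Named members were: the 8 highest and 8 lowest in Col-S minus Col-0 after ozone (average log2 CPM of at least 1, no overlap); the 6 informative ones nearer to Col-0 with the largest difference of the parents; the 4 highest and 4 lowest response differences; up to 4 per list; and the genes at each end. Other genes named with values were chosen after their values were seen.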

Additional observations from a re-analysis of the deposited data

Results flagged for a closer look

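Each value here is the difference of 2 ozone responses in log2 units, taken from the interaction contrast of the edgeR quasi-likelihood fit, and each had an adjusted p under 0.05. These contrasts hold the control libraries used to choose the stretch. In Col-S against Col-0 the response was higher by the value given in AT3G48240 (4.21), HR4 (2.95), AT3G47580 (4.06), UGT73D1 (6.31), PAD4 (2.29), EDS1 (1.25), RR5 (1.74), MYB77 (1.65) and NAC062 (1.48). The HR4 difference (edgeR adjusted p = 0.039) lost its call without any single library other than the 3 Col-0 controls, Col-0 ozone replicate 3 and Col-S ozone replicate 2 (adjusted p = 0.051 to 0.13), and was 1.86 without Col-0 control replicate 2. UGT73D1 lost it without any of 8 libraries (adjusted p = 0.052 to 0.30), and EDS1 without Col-0 control replicate 2 or Col-S control replicate 1 (0.052 and 0.051). The response was lower in Col-S in AT3G49970 (-2.80), GATL2 (-1.69), AT3G48380 (-1.26) and CXIP1 (-0.90). A higher response is not a higher level: HR4 and AT3G47580 were lower in Col-S than in Col-0 after ozone (log2 -4.32 and -2.87).

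In Cvi-0 against Col-0 the response was higher in AT3G48640 (1.61), AT3G48390 (2.07), AT3G48240 (5.86), BT2 (6.02), HR4 (4.39), AT3G47580 (2.51), PAD4 (2.35), PUB22 (1.5), EDS1 (1.75), RR5 (2.69), MYB77 (2.80), NAC062 (1.56) and CHX20 (0.87). It was lower in Cvi-0 in AT3G48630 (-2.12), COPT2 (-1.68), UGT76E11 (-1.18), AT3G46370 (-1.78), AT3G49970 (-4.29), GATL2 (-1.43), AT3G48380 (-1.29), CXIP1 (-1.05), EP3 (-0.68), PTAC16 (-0.88), GSA2 (-0.51), HCEF1 (-0.78), CRK (-0.41), SWEET11 (-2.21) and PTR1 (-1.09). Of these, leaving out 1 library ended the edgeR call for CRK (any of 15 libraries), COPT2 (13), UGT76E11 (8), GSA2 and PUB22 (7 each), EP3 (6), AT3G46370 (5), AT3G48640 (5) and CHX20 (1, Cvi-0 control replicate 3). The AT3G48640 difference was 0.84 without Col-0 control replicate 2. The Cvi-0 controls held 3 counts of BT2 in all, against 863 after ozone, so its difference of 6.02 starts from the floor. The contrasts share the Col-0 libraries. PTAC16, UGT76E11, AT3G46370 and COPT2 lie between 17 and 17.5 Mb, where 1 of 18 informative members was nearer to Cvi-0 in control libraries.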

How the results depend on the processing

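Across the alternatives 248 counts were compared with those reported, and 236 stayed within 1.5 times of them. The exceptions lay in the Col-S minus Col-0 response and the fold limit for informative genes. The 38 members with a different response became 65 with DESeq2 and 75 with the replicate block; the cause was not tested. The labels do not say what a replicate number stands for, and the numbers were not taken to pair the samples, since 35 and not all of 45 same-numbered pairs of libraries from different groups correlated above 0.1 in their deviations from the group means. As a hint of pairing from the data, the same-numbered pairs had r of 0.0399 to 0.448 (median 0.175), the 90 differently numbered pairs -0.277 to 0.171 (median -0.107), and all 18 libraries had their highest mean r with their own number. The reported p-values come from the fit without the block, so they do not account for such pairing. For the 38 members with a different response, leaving out single libraries gave 23 to 63. With a limit of 4-fold, 26 members went the same way in Col-S after ozone, 27 of 46 were nearer to Cvi-0 in controls and 51 of 74 after ozone. With no fold limit these were 87, 120 of 203 and 291 of 423, so the share nearer to Cvi-0 stayed between 58.7% and 61.6% in controls and between 68.8% and 68.9% after ozone. Leaving out single libraries moved the count for Col-S minus Col-0 after ozone over 163 to 239, Col-S minus Cvi-0 over 97 to 147, Cvi-0 minus Col-0 over 370 to 435, members called the same way over 42 to 47, and members nearer to Cvi-0 over 52 to 62 in controls and 110 to 137 after ozone. For 84 results of named genes under 22 settings, 1724 comparisons kept direction and call, 120 lost the call, 115 of them on leaving out a library, 4 gained it, and 0 reversed. The 18 results that changed were DWF4, HA4, HCEF1, LSU1, PTR1 and SWEET11 in Col-S minus Col-0 after ozone and 12 of the 41 response differences listed above as differing between genotypes. Of those 12, COPT2 also lost its call with DESeq2-type size factors, and CRK with these, with DESeq2 and with no filter. DWF4 passed the threshold under the block and without 3 single libraries. Members under a few counts per library have little power, and reads of all genotypes were counted on the Col-0 reference.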

Other observations

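The levels of some further members are given here, chosen after their values were seen. AT3G55780, a glycosyl hydrolase gene and one of the 10 members outside the range of both parents after ozone, read 2.71, 2.93 and 4.02 CPM in Col-S, 1.77, 1.75 and 1.10 in Cvi-0, compared with 0.0491, 0.123 and 0.108 in Col-0 after ozone. Its neighbour AT3G55790, an uncharacterized gene, read 3.11, 2.5 and 3.34 CPM in Col-S, 2.96, 2.65 and 3.45 in Cvi-0, compared with 0.0982, 0 and 0.271 in Col-0. Both had no count in Col-0 controls. ABCG16, an ABC transporter gene at 20.42 Mb, was lower in Col-S than in Col-0 after ozone, with a log2 difference of -2.06 (edgeR adjusted p = 0.00032). PRXCA, a cell wall peroxidase gene at 18.20 Mb, was at 336 ± 61.1 CPM in Col-S, 356 ± 23.9 in Cvi-0 and 184 ± 17.4 in Col-0 after ozone (SD, n = 3), and CEP2, a cysteine protease gene, at 1.18 ± 0.343, 1.34 ± 0.440 and 0.101 ± 0.102 CPM. DIN11, a 2-oxoglutarate oxygenase gene, rose with ozone in all 3 genotypes and stayed lower in Col-S (111 ± 20.1 CPM) and Cvi-0 (57.6 ± 15.1) than in Col-0 (289 ± 42.4; SD, n = 3), with Col-S above Cvi-0 by 0.94 (log2, edgeR adjusted p = 0.0025).

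Beyond the right limit of the stretch, the kinase gene AT3G57740 at 21.39 Mb was at 2.67 ± 1.02 CPM in Col-S, 3.04 ± 0.370 in Cvi-0 and 0.976 ± 0.236 in Col-0 after ozone. AT3G58430, a MATH domain gene at 21.61 Mb, was at 3.02 ± 1.19 CPM in Col-S and 2.09 ± 0.168 in Col-0, and had no count in Cvi-0 (SD, n = 3).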
